A study of Mus musculus with 55 samples.

Results

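Infarcts of type 1 diabetic mice were compared with infarcts of non-diabetic mice 28 days after myocardial infarction. The comparison set 10 libraries titled type 1 diabetic against 11 titled non-diabetic, chosen by their titles alone, which is 21 of the 55 libraries in the series. All mice were C57BL/6J and all carried an infarct, made by tying off a coronary artery for good, and the tissue was the infarcted left ventricle. The series' design text names no time but day 7, and the time of 28 days was taken from the titles. The library names hold hi STZ in the type 1 group and Ctrl in the non-diabetic group. The labels neither expand hi STZ nor give age, sex, blood glucose or insulin treatment. Hearts without an infarct were not analysed here, so every value is set against non-diabetic infarct. For reference, the 10 type 2 diabetic libraries of day 28 (lo STZ and HFFD in their names) and, from a separate sequencing project, 8 type 1 and 8 non-diabetic libraries of day 7 were used. The labels do not say that libraries came from separate animals, so the p-values reflect only how these libraries vary, and that variation may be technical.

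An infarct heals as leukocytes clear dead muscle and fibroblasts lay down a scar that then matures. Surviving heart muscle burns mostly fatty acids and turns to glucose or ketone bodies as supply and hormones change. Insulin promotes glucose uptake, and PPAR receptors, which sense fatty acids, raise genes of fatty acid use and restrain glucose oxidation. Glucocorticoids from the adrenal gland act through their own receptor on genes of metabolism and the clock. Immediate early genes encode transcription factors that cells induce within minutes of a stimulus.

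The libraries were deep and alike in size, from 58000000 to 84400000 counts in non-diabetic and from 57400000 to 89600000 in type 1 tissue. Levels are log2 CPM, which corrects each count for the size of its library, and are compared within a gene only. Cardiomyocyte markers were abundant in both groups, with a mean level over 20 genes of 10.35 ± 0.28 log2 CPM (SD, n = 11) in non-diabetic and 10.19 ± 0.24 (n = 10) in type 1 tissue. Counts of mitochondrially encoded genes made up 17.3 ± 2.86 percent and 14.7 ± 2.39 percent. Material from other tissue varied widely within each group. The mean of 10 skeletal muscle markers ran from 0.76 to 8.21 log2 CPM in non-diabetic and from 0.39 to 8.60 in type 1 tissue, and the B and plasma cell mean from 0.35 to 4.72 and from 0.50 to 4.26. Adipocyte markers ran from -0.82 to 5.65 and from -2.63 to 5.23. With the skeletal muscle mean as a covariate, 89 of the 93 named genes called below were called again. In bulk tissue, fewer cells of a type and less RNA per cell cannot be told apart.

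A small share of the transcriptome differed between the groups at day 28. A gene was called when its Benjamini-Hochberg adjusted p from edgeR's quasi-likelihood test was at or under 0.05, and changes are log2 ratios of type 1 over non-diabetic with a standard error (SE). Of 18901 genes tested 759 were called (4.02 percent), of which 492 rose (2.6 percent) and 267 fell (1.41 percent). The median change over all genes was -0.00353. In 37 genes (0.196 percent) the libraries of both groups did not overlap, with type 1 above in 27 (0.143 percent) and below in 10 (0.0529 percent). The first number of each library name, whose meaning the labels do not give, takes the values 1 to 4 in non-diabetic and 65, 67, 68 and 69 in type 1 libraries. Without the 4 libraries of number 68 only 79 genes were called, and with counts summed over libraries that share a group and a number, 6 were. Both settings have fewer replicates. Named genes were the 12 largest rises and 12 largest falls, up to 4 called members of each of 64 gene lists, and 29 genes listed for their role in heart or infarct. They came to 111, of which 93 were called, 66 higher and 27 lower. Of these 93, 51 kept their call without each of the 21 libraries in turn, and 17 kept it without each of the numbers 1, 2, 65, 68 and 69 in turn. Without number 68 alone 19 kept it. The calls lost there included those of Esm1, Cbr2, Uts2r, Bdh1, C7, Cd14, Clu, Smad7, Uchl1, Per1, Per2 and Myh7. The 17 included Angptl4, Pdk4, Cpt1a, Plin2, Txnip, Irs2, Sgk1, Dusp1, Zfp36, Nr4a1, Nr4a3, Atf3, Gdf15, Hmgcs1 and Scd2.

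Genes of lipid fuel use included the largest rises among the named genes. Of 25 PPAR target genes tested, 7 rose and 0 fell, against 2.6 percent of all genes that rose, and the list's median change was 0.13. Angptl4, a secreted inhibitor of lipoprotein lipase, was measured in non-diabetic libraries at 2.90 to 4.74 log2 CPM with a median of 3.26, and in type 1 libraries at 5.27 to 6.57 with a median of 6.14. The groups did not overlap, and Angptl4 was 5.25-fold higher (log2 change 2.39, SE 0.238, adjusted p = 2.37e-07). Pdk4, a kinase that shuts down pyruvate dehydrogenase and so spares glucose, ran from 6.82 to 8.36 (median 7.70) in non-diabetic and from 8.74 to 10.42 (median 9.76) in type 1 tissue. Again the lowest type 1 library stood above the highest non-diabetic one, with a 3.73-fold rise (log2 change 1.90, SE 0.216, adjusted p = 2.14e-06).

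Cpt1a, which carries long-chain fatty acids toward the mitochondrial matrix, lay between 5.87 and 6.26 log2 CPM (median 6.03) in non-diabetic and between 6.32 and 7.05 (median 6.83) in type 1 libraries. It rose by 0.76 (SE 0.080, adjusted p = 5.41e-07) with no overlap. Plin2, a coat protein of lipid droplets, rose by 0.52 (SE 0.0721, adjusted p = 4.97e-05), and 9 of 10 type 1 libraries exceeded every non-diabetic library. The mitochondrial carriers Ucp3 and Ucp2 rose by 1.20 (SE 0.279, adjusted p = 0.0114) and 0.92 (SE 0.148, adjusted p = 0.000505), the latter named after its value was seen. Other PPAR targets did not pass the test, from Ehhadh at -0.25 to Fgf21, a fasting hormone, at 1.21 (adjusted p = 0.0972). The enzymes of the fatty acid oxidation cycle itself showed no such shift, with 0 of 22 called by edgeR, 0 by DESeq2, 0 at an unadjusted p under 0.05 and a median of -0.01.

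Of genes of ketone body use, Bdh1 fell. This enzyme, which interconverts the 2 main ketone bodies on the path to their oxidation, ran from 6.45 to 7.47 log2 CPM (median 7.32) in non-diabetic and from 5.62 to 6.83 (median 5.81) in type 1 tissue. It fell by 1.17 (SE 0.222, adjusted p = 0.00242), with 8 of 10 type 1 libraries below every non-diabetic library. The call for Bdh1 was lost without library number 68. Oxct1, the enzyme that commits ketone bodies to oxidation, was at -0.50 and just missed the threshold (adjusted p = 0.0549).

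Both insulin receptor substrates changed, in opposite directions. Among 23 genes of glucose uptake and insulin signalling, 3 rose and 1 fell, against 2.6 and 1.41 percent of all genes. The median change was 0.03. Irs2, an adaptor that insulin itself represses in liver, ran from 4.02 to 4.94 log2 CPM (median 4.40) in non-diabetic and from 4.92 to 6.84 (median 5.43) in type 1 tissue, a rise of 1.25 (SE 0.188, adjusted p = 0.00017). All type 1 libraries but the lowest lay above the non-diabetic range. Irs1, the other adaptor, went the opposite way, from 5.23 to 5.66 (median 5.48) down to 4.83 to 5.43 (median 4.93), and fell by 0.48 (SE 0.105, adjusted p = 0.0076). Type 1 replicate 4 was the only type 1 library inside the non-diabetic range of Irs1. The receptor Insr was at 0.04 (SE 0.130, adjusted p = 0.907), the insulin-regulated glucose transporter Slc2a4 at -0.44 (SE 0.209, adjusted p = 0.24), Slc2a1 at 0.18 (adjusted p = 0.346) and the hexokinase Hk2 at -0.41 (adjusted p = 0.178). Slc2a4 passed in limma-voom with quality weights, and Hk2 passed there, with the cardiomyocyte mean as a covariate and with only both groups in the fit.

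Txnip, which restrains glucose uptake and binds thioredoxin, was higher in every type 1 library. It ran from 8.46 to 9.38 log2 CPM (median 8.82) in non-diabetic and from 9.57 to 10.05 (median 9.70) in type 1 tissue, with no overlap, and rose by 0.82 (SE 0.0945, adjusted p = 2.63e-06). Its relative Arrdc4 rose by 0.31 (SE 0.0704, adjusted p = 0.00992). Txnip is known to be induced by glucose through paired E-boxes, and its promoter is shown because those boxes lie in it. The window runs from 250 bases before the RefSeq start to 50 bases after it on chr3:96557707-96558006 (GRCm38.p6, plus strand), and the capitals mark a pair of CACGNG boxes 5 bases apart, whose first base lies 85 bases before the start:
Txnip: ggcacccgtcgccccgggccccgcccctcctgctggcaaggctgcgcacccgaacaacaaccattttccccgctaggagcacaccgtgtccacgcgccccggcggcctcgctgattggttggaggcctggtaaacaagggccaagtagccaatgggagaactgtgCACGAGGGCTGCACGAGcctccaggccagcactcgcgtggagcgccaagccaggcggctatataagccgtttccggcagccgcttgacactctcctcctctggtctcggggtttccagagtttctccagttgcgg

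Searched on both strands, this pattern occurred in 16 of 32851 promoter windows of that length (0.0487 percent). Of the 93 named genes called, 70 had a RefSeq window, and among their 89 windows the Txnip window was the only one to hold it. A PPAR direct repeat, AGGTCA given again after 1 free base, was in 0 of the 89 windows and in 0.0396 percent of all windows. The FoxO motif GTAAACA was in 2 of the 89 windows, those of Txnip and Prdm1, and in 3.65 percent of all. The AP-1 motif TGANTCA, bound by Fos and Jun family factors, was in 1 of the 89 (1.12 percent), that of Prdm1, and in 7.81 percent of all. The cyclic AMP response element TGACGTCA was in 3 (3.37 percent), those of Dusp1, Ltbp1 and Mcam, and in 1.79 percent of all. These matches describe the sequence and do not show that a factor binds there.

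**Figure D1:**
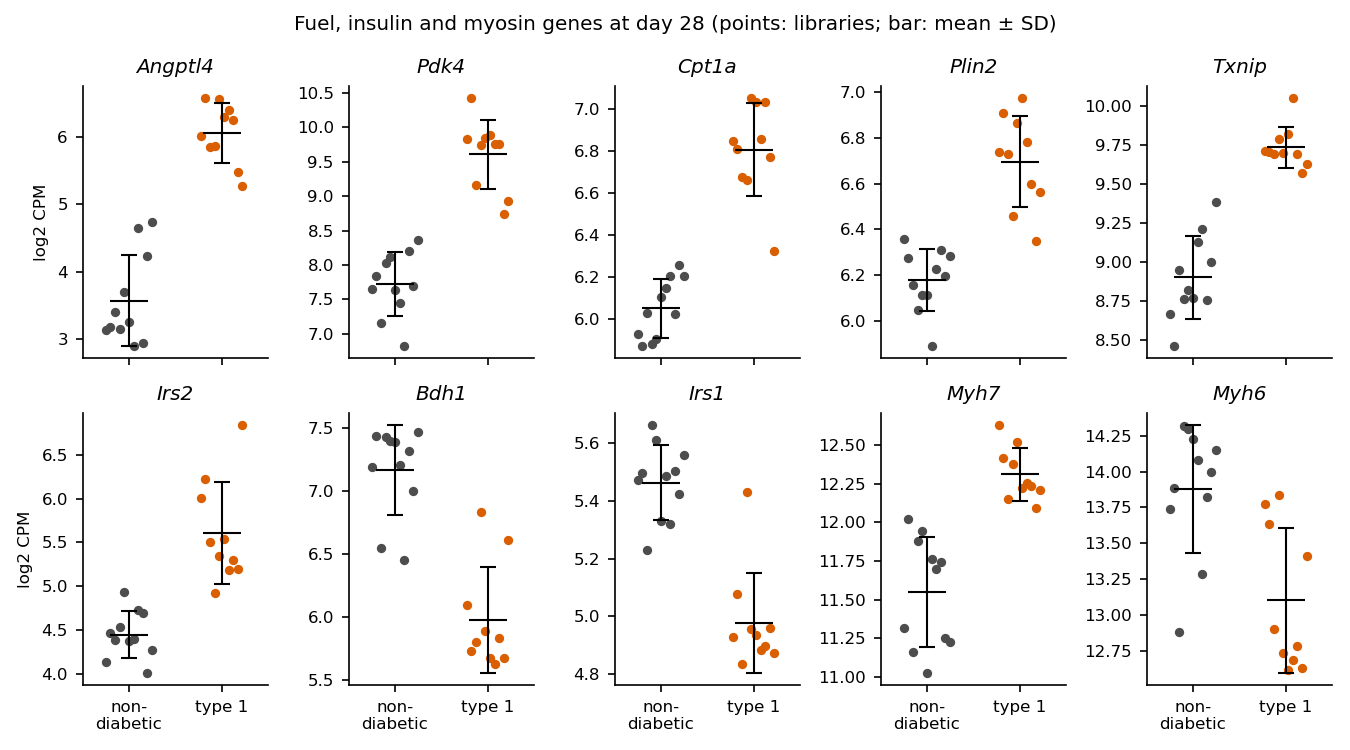
Levels of 10 genes of fuel use, insulin signalling and myosin in log2 CPM (vertical axis, scaled per gene) by group at day 28, with 1 point per library (11 non-diabetic, grey, and 10 type 1, orange) and bars for mean ± SD. Angptl4, Pdk4, Cpt1a, Txnip and Myh7 are higher in every type 1 library than in any non-diabetic one, and Myh6 overlaps between groups.

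Other parts of energy metabolism shifted little. Of 28 genes of the citric acid cycle and pyruvate dehydrogenase, all had a change below 0, with a median of -0.18, but only 1 was called. This was Pdp2, a phosphatase that reactivates pyruvate dehydrogenase, which fell by 0.56 (SE 0.149, adjusted p = 0.0285). The Pdp2 call was lost in 8 of the 21 fits that left out 1 library, the highest adjusted p being 0.0634 without type 1 replicate 5. All 40 nuclear-encoded subunits of the respiratory chain were also below 0, from -0.28 to -0.08, and 0 were called by edgeR or DESeq2, 0 had an unadjusted p under 0.05, and 6 were called by voom with quality weights. The 13 mitochondrially encoded genes had a median of -0.31 with 0 called by edgeR, 0 by DESeq2 and 2 at an unadjusted p under 0.05. The cardiomyocyte mean and the mitochondrial share were lower in type 1 tissue as well, as given above, and their part in these small negative values was not tested. Glycolysis genes were centred on 0.00, with 0 of 23 called by edgeR, 2 by DESeq2 and 4 at an unadjusted p under 0.05.

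Some genes of sterol and fat synthesis fell. Of 21 sterol synthesis genes 3 fell and 0 rose, against 1.41 percent of all genes that fell, and 20 had a negative change (median -0.19). Hmgcs1, which makes the precursor of cholesterol, ran from 5.12 to 5.70 log2 CPM (median 5.20) in non-diabetic and from 4.71 to 5.09 (median 4.88) in type 1 tissue. The groups did not overlap, and Hmgcs1 fell by 0.39 (SE 0.0733, adjusted p = 0.00235). Mvk and Sc5d, further enzymes of the pathway, fell by 0.36 (SE 0.0826, adjusted p = 0.0109) and 0.26 (SE 0.0534, adjusted p = 0.00469), each below the non-diabetic mean in 10 of 10 libraries. Among 18 lipogenic genes Scd2 fell, a desaturase that makes monounsaturated fatty acids. Its level ran from 5.70 to 6.49 (median 6.10) in non-diabetic and from 4.83 to 5.87 (median 5.25) in type 1 tissue, a change of -0.79 (SE 0.135, adjusted p = 0.00101, 10 of 10 libraries below the non-diabetic mean). Its relative Scd1, named after its value was seen, was at -1.89 with an SE of 0.638 and did not pass (adjusted p = 0.0878). Nr1h3, the liver X receptor alpha that drives lipogenic and sterol efflux genes, fell by 0.33 (SE 0.0757, adjusted p = 0.0103).

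Some enzymes of branched-chain amino acid breakdown and of glycogen also fell, with calls that rest on few libraries. Bckdhb and Dbt, subunits of the dehydrogenase that commits branched-chain amino acids to oxidation, fell by 0.47 each (adjusted p = 0.0266 and 0.0299). Without type 1 replicate 5 both missed the threshold (adjusted p = 0.0599 and 0.0629). Ugp2 and Phka1, which make the glycogen precursor UDP-glucose and regulate glycogen breakdown, fell by 0.53 and 0.43 (adjusted p = 0.0359 and 0.0469), and their calls were lost in 13 and 15 leave-one-out fits (highest adjusted p 0.0725 and 0.0865). Glul, which makes glutamine, rose by 0.42 (SE 0.109, adjusted p = 0.0244, and 0.0557 without type 1 replicate 7). Of 18 FoxO target and muscle proteolysis genes, Ddit4, a brake on mTORC1, rose by 0.68 (adjusted p = 0.0346), Bcl6 by 0.42 (adjusted p = 0.0121) and Eif4ebp1, a repressor of translation, by 0.31 (adjusted p = 0.0235). Ddit4 was no longer called in 9 leave-one-out fits (highest adjusted p 0.0771 without type 1 replicate 7), nor Eif4ebp1 without type 1 replicate 7 (0.053).

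Glucocorticoid-responsive genes held the largest share of calls of the lists used. Of 14 tested 9 rose and 0 fell, where 2.6 and 1.41 percent of all genes did, and the median change was 0.73. Without library number 68, 3 of 14 were called with a median of 0.43, and without number 65, 11 were. Sgk1, a kinase that mediates corticosteroid effects on ion transport, ran from 5.22 to 6.33 log2 CPM (median 6.09) in non-diabetic and from 6.45 to 7.17 (median 6.78) in type 1 tissue. It rose by 0.81 (SE 0.112, adjusted p = 4.97e-05) with no overlap. Dusp1, a phosphatase that switches off MAP kinases, rose by 0.64 (SE 0.135, adjusted p = 0.0057), with 7 of 10 type 1 libraries above the non-diabetic range. Nfkbia, Cdkn1a and Tsc22d3, an inhibitor of NF-kappaB, a cell cycle inhibitor and the leucine zipper protein GILZ, rose by 0.51, 0.61 and 0.82 (adjusted p = 0.0103, 0.0161 and 0.0487) and were named after their values were seen. Pdk4 and Per1 belong to this list too. Zbtb16 and Mt2, at 1.31 and 1.03, did not pass (adjusted p = 0.121 and 0.0709).

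The Sgk1 window is shown because it carries a perfect glucocorticoid receptor palindrome. It is 1 of 6 RefSeq windows of the gene, on chr10:21993640-21993939 (GRCm38.p6, plus strand), and the capitals mark AGAACA and TGTTCT with 3 free bases between them, starting 189 bases before the start:
Sgk1: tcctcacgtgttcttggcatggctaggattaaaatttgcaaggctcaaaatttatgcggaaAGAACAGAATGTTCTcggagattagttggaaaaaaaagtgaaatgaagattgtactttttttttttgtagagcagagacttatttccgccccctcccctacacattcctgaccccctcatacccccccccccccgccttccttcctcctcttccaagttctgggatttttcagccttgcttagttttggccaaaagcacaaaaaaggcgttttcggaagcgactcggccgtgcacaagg

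That palindrome was in 3 of 32851 windows (0.00913 percent) and in 1 of the 89 windows of called genes. The E-box CACGTG, the site of the clock factors among others, was in 12 of the 89 (13.5 percent), among them those of Per1, Sgk1, Dusp1, Irs1, Irs2 and Plin2, and in 7.15 percent of all windows. Genes and motifs were chosen with the changes known, so these shares are descriptions.

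Per1 and Per2, which form the negative limb of the clock, rose by 1.03 (SE 0.203, adjusted p = 0.00366) and 0.92 (SE 0.185, adjusted p = 0.00421). Per1 ran from 4.18 to 6.50 log2 CPM (median 5.96) in non-diabetic and from 6.19 to 7.25 (median 6.77) in type 1 tissue. The wide lower tail was that of the non-diabetic group, and 9 of 10 type 1 libraries were above its highest value, for Per1 as for Per2. The remaining 16 of 18 clock genes were not called, and the list's median was 0.06. Without library number 1, which left 6 non-diabetic libraries, the change of Per2 was 1.38.

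Fkbp5, a co-chaperone of the glucocorticoid receptor that the receptor itself induces, was not uniform within the type 1 group. It ran from 4.77 to 6.87 log2 CPM (median 5.38) in non-diabetic and from 5.11 to 7.83 (median 6.33) in type 1 tissue, a change of 1.28 (SE 0.375, adjusted p = 0.0476). This call was lost in 13 of the 21 fits that left out 1 library, the highest adjusted p being 0.108 without type 1 replicate 6. By library number, Fkbp5 averaged 7.70 in the 4 type 1 libraries of number 68 and 6.77 in the library of number 67, but 5.56 in the 3 of number 65 and 5.40 in the 2 of number 69. Those last values lie near the non-diabetic median. Leaving out number 68 took the change of Fkbp5 to 0.22. Fam107a, an actin-binding protein that glucocorticoids induce, went the same way, with 4.51 in number 68 and 2.66 and 2.64 in numbers 65 and 69. Its change of 1.46 (SE 0.378, adjusted p = 0.0234) was 1.28 without type 1 replicate 8 (adjusted p = 0.0629) and 0.64 without number 68. Mt1, a metal-binding metallothionein, was at 7.34 in numbers 67 and 68 and at 6.47 and 6.55 in numbers 65 and 69, and its rise of 0.63 (adjusted p = 0.0453) was lost in 14 of the 21 fits that left out 1 library (highest adjusted p 0.0983).

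Many immediate early genes rose. Of 16 tested 7 rose and 0 fell, against 2.6 and 1.41 percent of all genes. All 16 changes were above 0, and the median was 0.58. Nr4a3, an orphan nuclear receptor, ran from 2.29 to 3.30 log2 CPM (median 2.61) in non-diabetic and from 3.55 to 5.74 (median 4.32) in type 1 tissue, with no overlap (log2 change 1.77, SE 0.239, adjusted p = 4.46e-05). Its relative Nr4a1 ran from 4.07 to 6.09 (median 4.88) and from 5.41 to 7.72 (median 6.26) and rose by 1.51 (SE 0.285, adjusted p = 0.00235). Atf3, a stress-induced repressor, ran from 3.63 to 4.46 (median 3.95) and from 4.02 to 7.21 (median 5.19) and rose by 1.68 (SE 0.327, adjusted p = 0.00306). For both genes the groups overlapped at the lower end of the type 1 range. Zfp36, which destabilises cytokine mRNAs, rose by 0.57 (SE 0.106, adjusted p = 0.00228). Fosb, Fos and Klf4, named after their values were seen, rose by 1.64, 1.04 and 0.34, while Jun was at 0.10 (adjusted p = 0.68), Ier2 at 0.19 and Egr1 at 0.59 (adjusted p = 0.44).

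By library number the immediate early genes were highest where Fkbp5 was lowest. The mean of the 16 genes was 5.57 log2 CPM in number 65 and 5.68 in number 69, against 4.40 and 4.65 in numbers 67 and 68 and a non-diabetic range of 3.99 to 4.68. Nr4a1 averaged 6.78 and 7.29 in numbers 65 and 69, and 5.41 and 5.79 in numbers 67 and 68. Atf3 stood at 6.03 and 6.21 against 4.05 and 4.57. Nr4a3 did not follow this split, with 4.33, 3.55, 4.38 and 4.95 in numbers 65, 67, 68 and 69. Rgs1, a regulator of G protein signals in lymphocytes and other leukocytes, averaged 3.56 and 3.72 in numbers 65 and 69, -0.45 in the library of number 67 and 2.14 in number 68. Its rise of 1.53 (SE 0.415, adjusted p = 0.0314) was lost in 8 of the 21 fits that left out 1 library (highest adjusted p 0.0659 without type 1 replicate 9). The skeletal muscle mean was 8.19 in number 65 and 1.79 in number 69, and its part in the immediate early levels was not tested. The fuel genes Angptl4, Pdk4 and Txnip were above the non-diabetic range in every number, with Angptl4 at 6.15, 5.86, 6.38 and 5.37, Pdk4 at 9.81, 9.75, 9.81 and 8.84 and Txnip at 9.70, 9.79, 9.81 and 9.60 in numbers 65, 67, 68 and 69. Others were inside the non-diabetic range in 1 number, as were Bdh1 (6.83), Irs2 (4.92) and Irs1 (5.43) in number 67 and Ucp3 (4.01) in number 69. Numbers differ between the groups, so their part and that of diabetes cannot be told apart within a number.

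**Figure D2:**
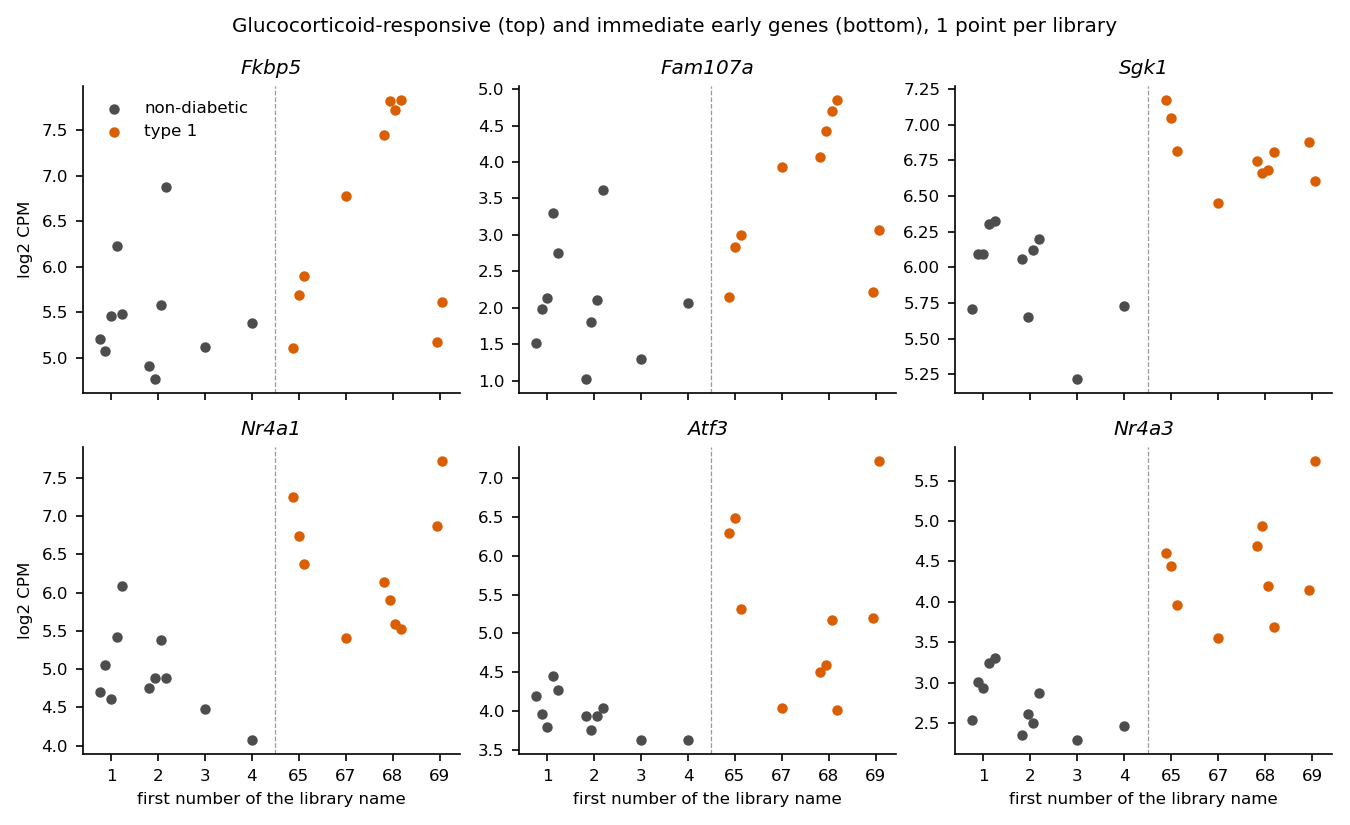
Levels of 3 glucocorticoid-responsive genes (top) and 3 immediate early genes (bottom) in log2 CPM by the first number of the library name (horizontal axis), with 1 point per library and a dashed line between non-diabetic (grey) and type 1 (orange) libraries. Fkbp5 and Fam107a are high in numbers 67 and 68 and near the non-diabetic level in 65 and 69, Nr4a1 and Atf3 are highest in 65 and 69, and Sgk1 and Nr4a3 are raised in all 4.

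The slow myosin Myh7 and a few stress genes of heart muscle changed. Myh7, the slow beta myosin that rodent hearts express under load or low thyroid hormone, ran from 11.03 to 12.02 log2 CPM (median 11.70) in non-diabetic and from 12.09 to 12.63 (median 12.24) in type 1 tissue. No libraries overlapped, and Myh7 rose by 0.73 (SE 0.171, adjusted p = 0.0122, and 0.13 without library number 68). Myh6, the fast alpha myosin of the adult mouse heart, ran from 12.88 to 14.32 (median 13.99) and from 12.62 to 13.83 (median 12.84). All 10 type 1 libraries were below the non-diabetic mean, but the change of -0.75 (SE 0.262) was not called (adjusted p = 0.0978). DESeq2 called it (adjusted p = 0.041), as did voom with quality weights, the fit of both groups alone and the fit with the cardiomyocyte mean as a covariate (-0.53, adjusted p = 0.000373). Of 17 cardiac stress genes 4 rose and 1 fell, where 2.6 and 1.41 percent of all genes did. Gdf15, a stress-induced hormone that curbs appetite, ran from 3.65 to 5.66 (median 4.49) and from 5.20 to 5.99 (median 5.65) and rose by 1.05 (SE 0.197, adjusted p = 0.00229). It was also called with counts summed by library number. Uchl1, a deubiquitinase, rose by 0.66 (SE 0.131, adjusted p = 0.00396), and the muscle LIM protein Fhl1, named after its value was seen, fell by 0.43 (adjusted p = 0.0332). The natriuretic peptide genes Nppa and Nppb were at 0.42 (SE 0.164, adjusted p = 0.139) and 0.24 (SE 0.135, adjusted p = 0.34). Each was above the non-diabetic mean in 10 of 10 type 1 libraries. Nppa passed in voom with quality weights.

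Among 20 cardiomyocyte markers 0 were called by edgeR, 2 by DESeq2 and 3 had an unadjusted p under 0.05, with a median of -0.22. Of 30 calcium handling and ion channel genes 0 were called by edgeR, 5 by DESeq2 and 7 had an unadjusted p under 0.05. Atp2a2, the calcium pump of the sarcoplasmic reticulum, was at -0.40 (SE 0.193, adjusted p = 0.241), and it was called in voom with quality weights and with the cardiomyocyte mean as a covariate. Edn1, which encodes the vasoconstrictor endothelin 1, rose by 0.67 (SE 0.166, adjusted p = 0.0184), and 8 of 10 type 1 libraries exceeded the non-diabetic range.

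Some matrix genes rose. Of 32 collagen chains 5 rose and 0 fell, where 2.6 and 1.41 percent of all genes did. For 28 chains the change was above 0, and the median was 0.25. The chains that rose were not those of the main fibrils. They were Col14a1 (0.54, adjusted p = 0.0229), which sits on fibril surfaces, Col7a1 (0.64, adjusted p = 0.0279), Col27a1 (0.47, adjusted p = 0.0344), Col9a2 (0.68, adjusted p = 0.0384) and Col11a2 (0.32, adjusted p = 0.045, named after its value was seen). Of the first 4, only Col14a1 was called without each library in turn, and Col7a1, Col27a1 and Col9a2 lost their calls in 6, 11 and 11 leave-one-out fits (highest adjusted p 0.0671, 0.0754 and 0.0866). Col1a1 and Col3a1, the chains of the fibrils that make up most of a scar, were at 0.28 (SE 0.153, adjusted p = 0.322) and 0.20 (SE 0.135, adjusted p = 0.429), with ranges that overlapped widely. Without library number 68, Col14a1, Col7a1, Col27a1 and Col9a2 all lost their calls. There 1 other collagen chain was called, and the median was 0.12.

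Genes of the TGF-beta pathway, which drives scar formation, rose in part. Of 23 tested 5 rose and 0 fell, against 2.6 and 1.41 percent of all genes, with a median of 0.18. The inhibitor Smad7 and the target Id1 rose by 0.45 (SE 0.0933, adjusted p = 0.00541) and 0.37 (SE 0.0901, adjusted p = 0.0158). The coreceptor Eng rose by 0.45 (adjusted p = 0.0461), lost in 13 of 21 leave-one-out fits (highest 0.0978). Ltbp1, which stores latent TGF-beta in the matrix, rose by 0.24 (SE 0.0571, adjusted p = 0.0129).

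Of 30 proteoglycan and matricellular genes 4 rose and 0 fell (median 0.17). Among 31 matrix proteases and inhibitors 3 rose and 0 fell (median 0.13), where 2.6 and 1.41 percent of all genes did. Ccn2, a TGF-beta target that amplifies fibrosis, ran from 9.07 to 10.15 (median 9.73) and from 9.75 to 10.45 (median 10.30) and rose by 0.54 (SE 0.133, adjusted p = 0.0182). Postn, the periostin of activated fibroblasts, ran from 9.53 to 10.16 (median 9.78) and from 10.13 to 10.62 (median 10.23). Its rise of 0.45 (SE 0.120, adjusted p = 0.0279) was lost in 6 of the 21 fits that left out 1 library (highest 0.0669 without type 1 replicate 8). Thbs1 and Thbs2, thrombospondins that restrain vessel growth, rose by 0.60 each (adjusted p = 0.0264 and 0.0244) and reached 0.0633 and 0.0549 without type 1 replicates 8 and 5. Adamts1, a protease that cleaves proteoglycans, rose by 0.70 (SE 0.169, adjusted p = 0.0148), and Mmp2, a gelatinase, by 0.47 (SE 0.125, adjusted p = 0.0279, and 0.0646 without type 1 replicate 9). Emilin1 and Fbn2 of the elastic fibre rose by 0.43 and 0.41 (adjusted p = 0.0236 and 0.0454, and 0.0602 and 0.0933 without type 1 replicate 5), while elastin itself, Eln, was at 0.41 (SE 0.185, adjusted p = 0.211). The myofibroblast markers Cthrc1 and Fap rose by 0.79 and 0.32 (adjusted p = 0.0496 and 0.0409), and lost their calls in 16 and 14 leave-one-out fits (highest 0.104 and 0.0905). Late scar genes split, with Clu, a secreted chaperone, up by 0.54 (SE 0.119, adjusted p = 0.00788), Chad, a cartilage protein, down by 1.21 (SE 0.274, adjusted p = 0.00984), and Comp at 0.16 (adjusted p = 0.698). Resting fibroblast markers had a median of 0.02, with 0 of 13 called by edgeR, 1 by DESeq2 and 2 at an unadjusted p under 0.05.

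**Figure D3:**
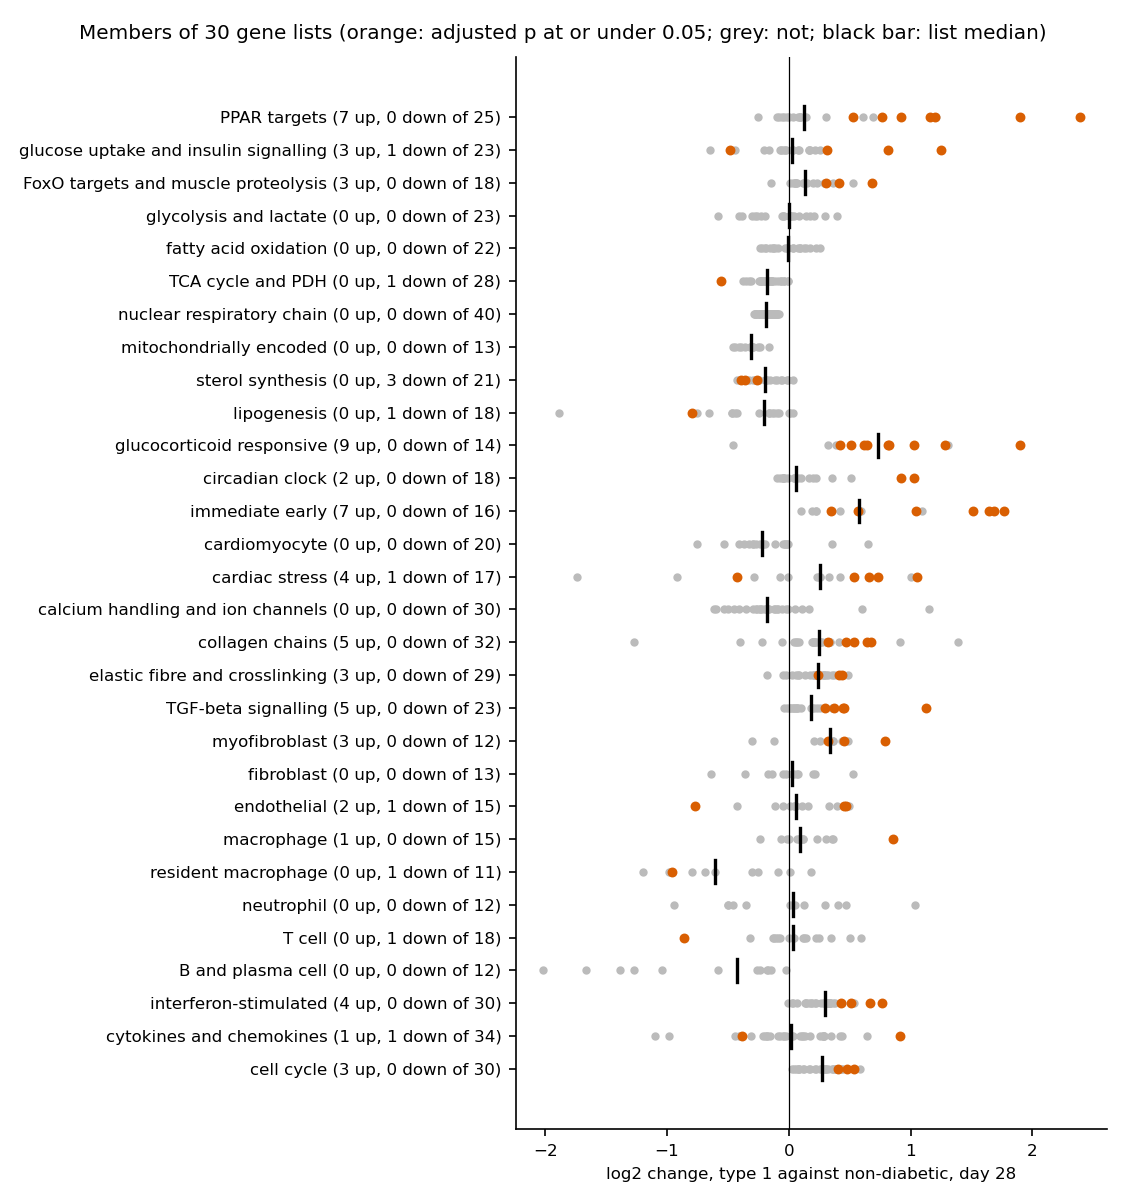
Log2 changes of type 1 against non-diabetic infarct at day 28 (horizontal axis) for every tested member of 30 gene lists (rows, with counts called up and down), in orange where the adjusted p was at or under 0.05 and grey otherwise, with a black bar at the median. Glucocorticoid-responsive and immediate early genes have the medians farthest above 0 of the lists shown, and the PPAR targets have a median near 0 with 7 called members far to the right.

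A few interferon-stimulated genes rose. Of 30 tested 4 rose and 0 fell, against 2.6 and 1.41 percent of all genes. Changes were above 0 in 29, and the median was 0.30. Irf7, the transcription factor that amplifies interferon production, ran from 4.71 to 5.40 log2 CPM (median 4.94) in non-diabetic and from 5.25 to 6.25 (median 5.70) in type 1 tissue. It rose by 0.76 (SE 0.154, adjusted p = 0.00438), with 8 of 10 type 1 libraries above the non-diabetic range. Bst2 (tetherin, which holds budding virus at the cell surface) and Ifi44 rose by 0.43 (SE 0.0964, adjusted p = 0.00953) and 0.67 (SE 0.169, adjusted p = 0.0208). Oas2, an RNA sensor from a family of close copies, rose by 0.51 (adjusted p = 0.0456), lost in 16 of 21 leave-one-out fits (highest 0.0938). Mx1 and Rsad2 were at 0.02 and 0.03. None of these calls held without library number 68 or without number 1, where the medians were 0.27 and 0.31 and no other tool was run. The type 2 infarcts of the same day were far higher. Of the 30 genes 29 were called lower in type 1 than in type 2 tissue (background for a call in that direction, 2.03 percent), with a median of -0.80. Irf7 was 1.23 lower (SE 0.160, adjusted p = 2.23e-05), with type 2 libraries from 6.21 to 7.81.

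The Bst2 promoter is shown for the overlapping pair of interferon response motifs in it. It lies on chr8:71537423-71537722 (GRCm38.p6, minus strand), and the capitals mark matches of GAAA, 2 free bases and GAAA that start 130 and 124 bases before the start and share 4 bases:
Bst2: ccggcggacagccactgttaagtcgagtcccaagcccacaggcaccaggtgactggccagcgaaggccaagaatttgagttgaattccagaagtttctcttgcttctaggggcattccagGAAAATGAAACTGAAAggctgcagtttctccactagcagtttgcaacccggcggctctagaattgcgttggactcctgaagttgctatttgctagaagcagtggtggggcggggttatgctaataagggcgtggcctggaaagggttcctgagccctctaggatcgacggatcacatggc

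On either strand this motif was in 1131 of 32851 windows (3.44 percent) and in 6 of the 89 windows of called genes (6.74 percent). Those were windows of Apol10b, Bst2, Bub1b, Edn1, Glul and Sgk1. Of the called interferon-stimulated genes, only Bst2 was among them.

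**Figure D4:**
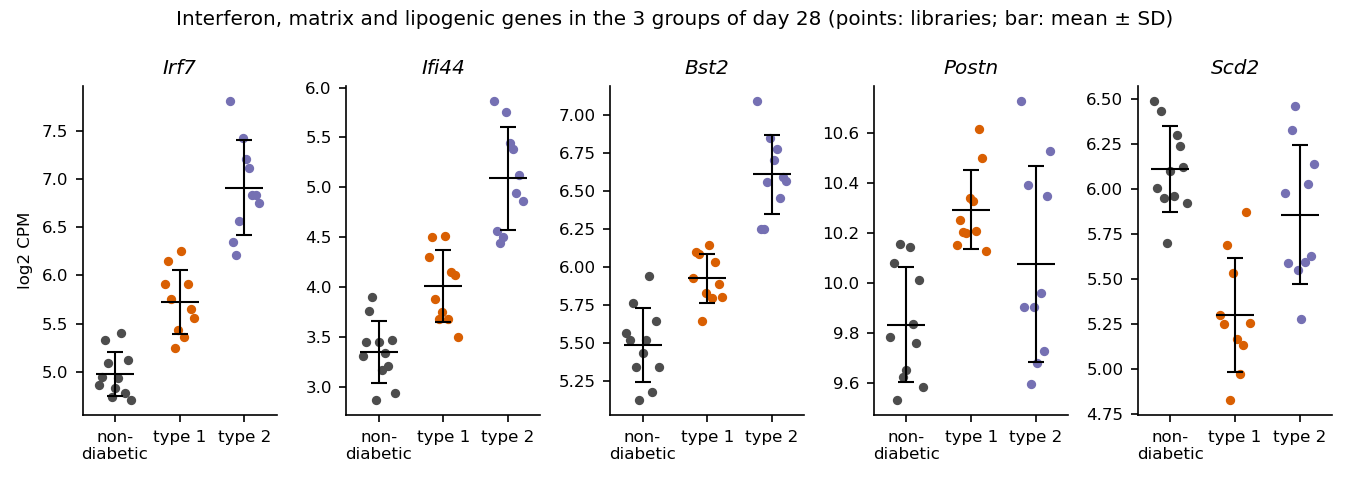
Levels of Irf7, Ifi44, Bst2, Postn and Scd2 in log2 CPM (vertical axis, scaled per gene) in the 11 non-diabetic, 10 type 1 and 10 type 2 libraries of day 28, with 1 point per library and bars for mean ± SD. The 3 interferon genes are lower on average in type 1 than in type 2 tissue, and Scd2 is lower on average in type 1 than in both other groups.

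Leukocyte genes held scattered calls, where 4.02 percent of all genes were called. Cd14, the lipopolysaccharide coreceptor of macrophages, ran from 3.51 to 4.92 log2 CPM (median 4.27) and from 4.40 to 5.75 (median 5.25) and rose by 0.86 (SE 0.161, adjusted p = 0.00235), while the other 14 macrophage markers were not called. Of 11 resident macrophage markers Cbr2, a carbonyl reductase, fell. It ran from 4.00 to 5.40 (median 4.30) in non-diabetic and from 2.83 to 3.91 (median 3.67) in type 1 tissue, with no overlap (log2 change -0.95, SE 0.189, adjusted p = 0.00374). The call for Cbr2 was lost without library number 68 (adjusted p = 0.0702). The list's median was -0.61, with Timd4 at -1.20, Folr2 at -0.79 and Mrc1, the mannose receptor, at -0.09 (adjusted p = 0.177, 0.0648 and 0.81), the first pair named after their values were seen. DESeq2 called 4 of the 11. Prdm1, the factor Blimp-1 of plasma cells and differentiated lymphocytes, ran from 2.00 to 3.02 (median 2.70) and from 1.43 to 2.23 (median 1.63) and fell by 0.91 (SE 0.189, adjusted p = 0.00523). The mean of 12 B and plasma cell markers was 2.51 ± 1.44 (n = 11) against 1.97 ± 1.11 (n = 10), with 0 called by edgeR, 0 by DESeq2 and 1 at an unadjusted p under 0.05, and its part in the change of Prdm1 was not tested.

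Calls among inflammatory mediators went both ways. Of 34 cytokines and chemokines 1 rose and 1 fell, where 2.6 and 1.41 percent of all genes did, with a median of 0.02. Cxcl12, which retains leukocytes and guides progenitor cells, fell by 0.38 (SE 0.0845, adjusted p = 0.0085). Cxcl2, a neutrophil attractant, rose by 0.91 (adjusted p = 0.0419) from a low level, a call lost in 16 of 21 leave-one-out fits (highest 0.0867). Ccl2 was at -0.21 (SE 0.167, adjusted p = 0.506), Il1b at 0.44 (SE 0.410, adjusted p = 0.595), the neutrophil gene S100a8 at -0.50 (SE 0.282, adjusted p = 0.335) and Spp1, the osteopontin of macrophages, at -0.08 (SE 0.202, adjusted p = 0.875). Of 12 neutrophil markers 0 were called by edgeR, 0 by DESeq2 and 1 had an unadjusted p under 0.05. Ctla4, an inhibitory receptor of regulatory T cells, fell by 0.86 (adjusted p = 0.044, and 0.0893 without type 1 replicate 5). The lipoxygenase Alox5 and the leukotriene hydrolase Lta4h changed by -0.38 and 0.16 (adjusted p = 0.0487 and 0.0268), and lost their calls in 15 and 4 leave-one-out fits (highest 0.099 and 0.0582). C7, a late complement component, ran from 4.67 to 6.86 (median 5.48) and from 3.86 to 5.14 (median 4.52) and fell by 1.07 (SE 0.234, adjusted p = 0.0076). It was the only 1 of 21 complement genes called.

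Vessel genes moved both ways. Esm1, a proteoglycan of endothelial tip cells, ran from 2.43 to 3.11 log2 CPM (median 2.77) in non-diabetic and from 0.61 to 2.40 (median 1.38) in type 1 tissue. It fell by 1.22 (SE 0.229, adjusted p = 0.00235, and 0.0961 without library number 68), with no overlap. The apelin receptor Aplnr fell by 0.77 (SE 0.198, adjusted p = 0.0228, and 0.0519 without type 1 replicate 5). Fabp4, a fatty acid carrier of capillary endothelium and adipocytes, rose by 0.47 (SE 0.124, adjusted p = 0.0275, and 0.0544 without type 1 replicate 7), Pgf, a growth factor of the VEGF family, by 0.44 (adjusted p = 0.0395, and 0.0928 without type 1 replicate 5), and Mcam of mural cells by 0.25 (adjusted p = 0.0374, and 0.0921 without type 1 replicate 5). Uts2r, the receptor of the vasoactive peptide urotensin, ran from 1.10 to 3.09 (median 2.43) and from -0.88 to 2.13 (median 1.01), the largest fall among named genes at -1.45 (SE 0.281, adjusted p = 0.00306). Its ranges overlapped, and 7 of 10 type 1 libraries were under the lowest non-diabetic value.

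Some of the steadiest differences lay outside these groups. The following genes were picked after their values were seen, because the libraries of both groups did not overlap and the call held without library number 68. Abat, the transaminase that degrades the transmitter GABA, ran from 4.85 to 5.46 log2 CPM (median 5.17) in non-diabetic and from 4.12 to 4.70 (median 4.37) in type 1 tissue. It fell by 0.79 (SE 0.0756, adjusted p = 2.21e-07), the smallest p of all genes. Tinagl1, a matrix protein of vessel walls, ran from 5.43 to 5.93 (median 5.78) and from 6.21 to 6.71 (median 6.39) and rose by 0.70 (SE 0.0762, adjusted p = 9.85e-07). Nos3, the endothelial nitric oxide synthase, ran from 4.53 to 5.28 (median 5.09) and from 5.38 to 5.81 (median 5.49) and rose by 0.45 (SE 0.0796, adjusted p = 0.00146). Abat, Tinagl1 and Nos3 were also among the 6 genes called with counts summed by library number (adjusted p = 0.0344 each), with Rbp7, Gdf15 and Nr4a3. The transcription factor Klf11 rose by 0.78 (SE 0.0939, adjusted p = 5.43e-06), the nuclear protein Csrnp1 by 0.90 (SE 0.123, adjusted p = 4.65e-05), the MAP kinase phosphatase Dusp4 by 1.07 (SE 0.153, adjusted p = 0.000101) and the VIP receptor Vipr2 by 1.04 (SE 0.178, adjusted p = 0.00105). Arid5a, which stabilises inflammatory mRNAs, rose by 0.60 (SE 0.0771, adjusted p = 2.01e-05), the clock kinase Csnk1e by 0.27 (SE 0.0425, adjusted p = 0.000505) and the venous ephrin receptor Ephb4 by 0.33 (SE 0.0551, adjusted p = 0.000873). Nlrc3, a brake on innate signalling, fell by 0.46 (SE 0.0776, adjusted p = 0.00105).

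Further single genes stood at the ends of the range or in lists with 1 call. Ahsg, the serum protein fetuin-A, rose by 1.30 (SE 0.310, adjusted p = 0.0143), with 5 of 10 type 1 libraries above the non-diabetic range. Dct, a melanin synthesis enzyme, fell by 1.33 (SE 0.312, adjusted p = 0.0125), with broad overlap. Apol10b fell by 0.95 (SE 0.174, adjusted p = 0.00197). Gfra3, a receptor of the GDNF family and Schwann cell marker, the lysosomal tetraspanin Cd63 and the pentose phosphate enzyme Taldo1 rose by 0.77, 0.24 and 0.16 (adjusted p = 0.0445, 0.0493 and 0.0349), calls lost in 14, 15 and 11 leave-one-out fits (highest 0.0948, 0.0935 and 0.0717). The thioesterase Acot1, a PPAR target, was at 0.69 (adjusted p = 0.125). Tfrc, the transferrin receptor through which cells take up iron, fell by 0.97 (adjusted p = 0.044), a call lost in 15 of the 21 fits that left out 1 library. Without non-diabetic replicate 4 its change was -0.77 (adjusted p = 0.0937). The Tfrc call was also lost without each of the numbers 1, 2, 65, 68 and 69 in turn. Ung, a DNA repair glycosylase, fell by 0.88 (adjusted p = 0.0221, and 0.0502 without type 1 replicate 5). Foxo6os, an antisense transcript whose reads cannot be told from those of its partner gene without a stated strand setting, fell by 1.08 (adjusted p = 0.0292, and 0.0608 without type 1 replicate 6). Of 30 cell cycle genes all changes were above 0 (median 0.27), and 3 rose, where 2.6 percent of all genes did. They were Rrm2 (0.54, adjusted p = 0.0268), Cdk1 (0.48, adjusted p = 0.0363) and Bub1b (0.41, adjusted p = 0.0487), lost in 2, 13 and 18 leave-one-out fits (highest 0.0528, 0.0697 and 0.0895).

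The change at day 28 was often not that at day 7. At day 7, 4087 of 18165 genes (22.5 percent) were called in the same contrast of 8 against 8 libraries. Of the 93 named genes called at day 28, 19 were called at day 7 in the same direction and 15 in the opposite direction. For 43 the change itself differed between the days, against a background of 12.5 percent of all genes (6.98 percent with a higher and 5.5 percent with a lower change at day 28). The 93 were chosen by their day 28 values, which enter this difference, so the choice itself raises their share. Day and sequencing project cannot be told apart. Among genes with the same sign, Angptl4 rose at both days and more at day 28 (1.13 at day 7, difference 1.25, adjusted p = 0.0106). For Plin2, Irs1, Bdh1 and Irf7 the change was 0.62, -0.81, -1.13 and 0.69 at day 7, and the difference between days was not called (adjusted p = 0.726, 0.398, 0.965 and 0.905). Irs2, Txnip and Nr4a3 were near 0 at day 7 (0.09, 0.16 and 0.18), and their changes differed by 1.15, 0.64 and 1.57 (adjusted p = 0.0027, 0.00888 and 0.00536).

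Collagen chains were mostly called lower at day 7, and none was called lower at day 28. Of 32 collagen chains 22 fell and 0 rose at day 7 (median -0.58), against 0 and 5 at day 28. Over all genes 11.4 percent fell and 11.1 percent rose at day 7, against 1.41 and 2.6 percent at day 28. Fewer calls at day 28 are therefore not in themselves a change of these lists. Col9a2, Thbs2, Mmp2 and Postn fell by 1.10, 0.97, 0.82 and 0.59 at day 7, and the differences between days were 1.76, 1.55, 1.28 and 1.02 (adjusted p = 6.56e-05, 3.33e-05, 8.45e-06 and 0.000636). Eln and Comp, not called at day 28, fell by 2.11 and 1.88 at day 7. Of 11 resident macrophage genes 6 rose and 1 fell at day 7 (median 1.10), against 0 and 1 at day 28 (median -0.61). Of these, Cbr2 rose by 1.10 at day 7 and fell at day 28 (difference -2.05, adjusted p = 8.45e-06). Tfrc, from the list of iron genes, rose by 0.73 at day 7 (difference -1.71, adjusted p = 0.000848). The neutrophil and monocyte genes that marked day 7, S100a8 at 2.56 and Ccl2 at 1.73, had differences of -3.07 and -1.96 (adjusted p = 0.000905 and 7.09e-05).

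**Figure D5:**
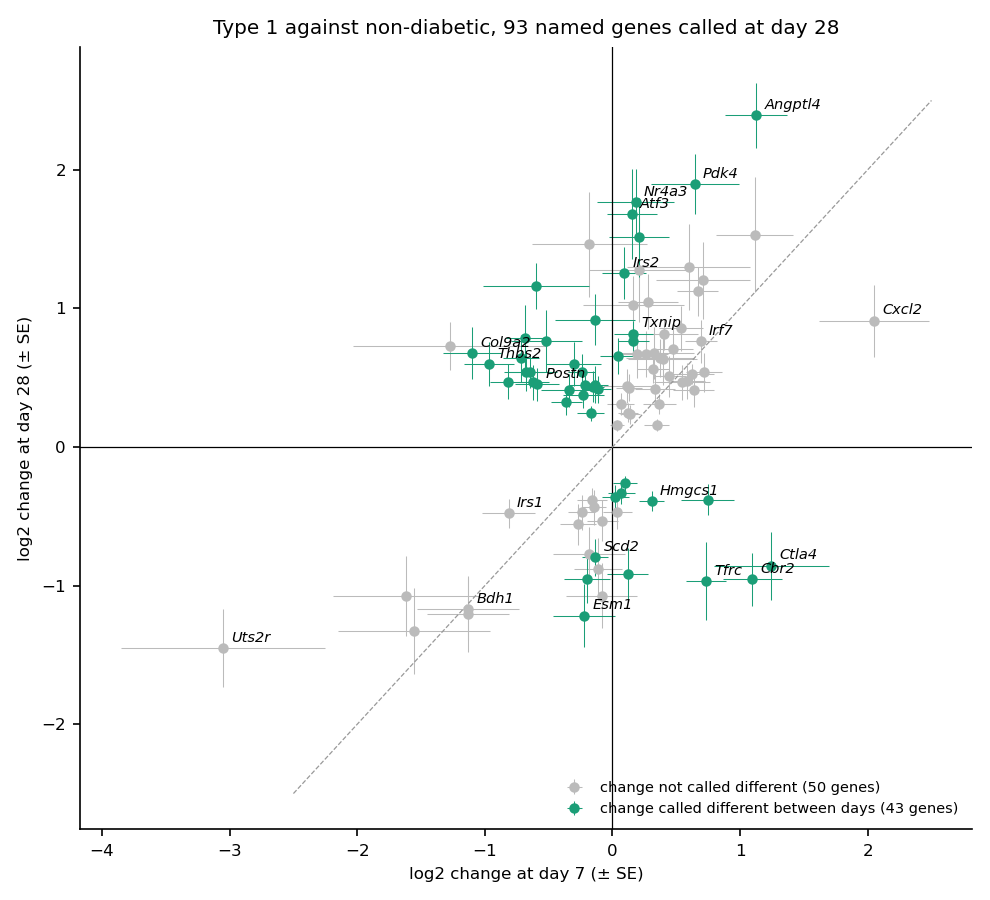
Log2 change of type 1 against non-diabetic infarct at day 28 (vertical axis) against that at day 7 (horizontal axis) for the 93 named genes called at day 28, with bars for the standard error and a dashed line of equal change. Green marks 43 genes whose change differed between the days at an adjusted p at or under 0.05, with matrix genes such as Col9a2, Thbs2 and Postn at upper left and Cbr2, Tfrc and Ctla4 at lower right.

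Type 1 and type 2 infarcts of day 28 differed in 16 of the 93 named genes, against 3.21 percent of all genes (1.19 percent higher and 2.03 percent lower). The 93 were chosen by their call in the main comparison, which shares the type 1 libraries with this contrast, so the choice itself raises their share. These values are set beside the main comparison as separate contrasts. Angptl4, Txnip, Myh7 and Uchl1 were higher in type 1 than in type 2 tissue by 0.85, 0.48, 0.61 and 0.56 (adjusted p = 0.04, 0.00297, 0.0476 and 0.0154). Txnip ran from 8.95 to 9.57 in type 2 libraries, and the type 1 range began at 9.57. Scd2, Nr1h3, Cbr2, Chad and Ctla4 were lower by 0.57, 0.38, 0.80, 1.03 and 1.42 (adjusted p = 0.0158, 0.00384, 0.0165, 0.0356 and 0.00075). For Pdk4, Cpt1a, Irs2, Bdh1 and Sgk1 the difference was 0.42, 0.28, 0.23, -0.47 and 0.00, and none of these was called (adjusted p = 0.332, 0.0533, 0.622, 0.28 and 0.996). These p-values do not show that the types were alike, the SE being 0.216 for Pdk4 and 0.19 for Irs2. Among genes not called against non-diabetic tissue, Nppa and Eln were higher in type 1 than in type 2 tissue by 0.76 (adjusted p = 0.00772) and 0.72 (adjusted p = 0.0298).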

How the data were processed

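RNA of infarcted left ventricle was purified on PureLink columns and sequenced as stranded TruSeq mRNA libraries, per the labels' protocols. The authors deposited whole-number counts per Ensembl gene, 1 table per day, not normalized. The mm39 build is named in the submitters' processing notes, as is DESeq2. For the aligner, counter, annotation and strand setting, the choice is not given in the sources used here. The day 28 file lists 57186 genes, and 51880 of their IDs, holding 99.6 percent of counts, matched a symbol of GENCODE M21. Of counts between 1 and 49, 75.2 percent were even, for which no source used here gives a reason.

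Genes were filtered with filterByExpr (minimum count 10, total 15), scaled by TMM and tested with edgeR 4.0.16 (quasi-likelihood, Benjamini-Hochberg, R 4.3.3) in 1 fit of the 31 libraries of day 28. A second fit of all 55 libraries gave the difference between days, and the day 7 contrast came from the day 7 libraries. Levels are log2 CPM with a prior count of 2, and are not per length, so levels of different genes are not compared. DESeq2 1.42.0 and limma 3.58.1 served as alternatives. Replicate numbers did not pair the libraries (see the effects of the processing). No libraries looked like copies (lowest chi-square per gene 25.0 over 145 pairs). On simulated counts for the main comparison (18901 genes), 76 percent of 100 genes changed by 0.5 and 95 percent of 100 genes changed by 1 on the log2 scale were recovered, with 4.47 percent of calls false. The simulated libraries were drawn independently around the non-diabetic means, without grouping by library number. Those shares therefore hold for that setting and do not give the false share of the real calls.

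The members and gene lists were chosen with earlier results of these data known. Named genes were the 12 largest called rises and falls with a mean of at least 1 log2 CPM, for each list its called members of lowest p (at most 4), and 29 listed genes, and any other gene was named after its value was seen. Promoter windows are from RefSeq (GRCm38.p6). Coordinates of genes and sequence by coordinate were not used here.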

Additional observations from a re-analysis of the deposited data

Results flagged for a closer look

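The change of type 1 against non-diabetic tissue at day 28 minus that at day 7 was called for the named genes below by edgeR's test of the difference with Benjamini-Hochberg adjustment. Day and sequencing project cannot be told apart. Differences above 0 were found for fuel and stress genes, at 1.25 for Angptl4, 1.23 for Pdk4, 0.59 for Cpt1a, 0.64 for Txnip, 1.15 for Irs2, 0.51 for Bcl6, 1.57 for Nr4a3, 1.52 for Atf3, 1.28 for Nr4a1, 1.04 for Per2 and 0.60 for Uchl1. The Schwann cell gene Gfra3 had 1.27. They were also found for matrix and TGF-beta genes. Collagen chains had 1.20 for Col14a1, 1.34 for Col7a1, 1.07 for Col27a1, 1.76 for Col9a2, 1.01 for Col1a1 and 0.56 for Col3a1. Elastic fibre genes had 2.52 for Eln, 0.40 for Ltbp1, 0.57 for Emilin1 and 0.74 for Fbn2. Matricellular and fibroblast genes had 1.02 for Postn, 0.67 for Fap, 1.46 for Cthrc1, 1.17 for Clu, 0.76 for Ccn2, 0.89 for Thbs1, 1.55 for Thbs2, 2.03 for Comp and 1.28 for Mmp2. Signalling genes had 0.65 for Smad7, 0.58 for Id1 and 0.57 for Eng.

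Differences below 0 were found for immune genes, at -2.05 for Cbr2, -2.08 for Ctla4, -1.05 for Prdm1, -1.13 for Alox5, -3.07 for S100a8, -1.96 for Ccl2, -1.22 for Mrc1 and -0.88 for Spp1. Genes of sterol and lipid synthesis had -0.71 for Hmgcs1, -0.37 for Sc5d, -0.39 for Mvk, -0.67 for Scd2 and -0.41 for Nr1h3. Of the rest, Tfrc had -1.71, Esm1 -1.01 and Apol10b -0.76.

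Of 178 values tested in the type 1 group, the 11 described here had a library far from the others, with a gap to its nearest neighbour above Dixon's limit for 10 libraries. Chance flags about 1 in 20 groups. Replicate 4 was low in Rgs1 (-0.45 log2 CPM) and in the mean of the NK cell markers (-1.46) and high in Irs1 (5.43). Replicate 7 was high in Txnip (10.05) and in the fibroblast mean (8.02). Replicate 10 was low in Bub1b (2.06) and the cell cycle mean (2.38) and high in the lipogenesis mean (5.61). Replicate 9 was low in Per2 (3.28) and high in the mean of late scar genes (8.19), and replicate 1 was high in Prdm1 (2.23).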

How the results depend on the processing

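The 759 calls of the main comparison became 1219 with DESeq2 (715 higher, 504 lower), 3025 with voom and quality weights (1588 and 1437), 1531 with the cardiomyocyte mean as a covariate, 440 with no low-count filter and 6 with counts summed by library number. They were 214, 482, 820, 79 and 557 without library numbers 1, 2, 65, 68 and 69, 940 with voom and library number as a random block (consensus correlation -0.018), and 443 to 954 with single libraries left out. The lowest counts came without type 1 replicates 5 (443), 8 (471) and 6 (498), and the highest without type 1 replicate 4. The 607 calls against type 2 became 1046 with DESeq2, 1093 with the cardiomyocyte covariate, 403 with no filter, 125 with sums and 372 to 698 with single libraries left out. The 2548 differences between days became 423 with sums. The replicate number as a block gave 333 calls (232 higher, 101 lower) against non-diabetic and 375 against type 2 tissue. Labels share the numbers only, and pairing was not seen in the data, since 0 of 10 pairs had a correlation of deviations over 0.1 (range -0.21 to 0.08) and 0 libraries correlated best with their own number.

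Of the 93 named calls, DESeq2, RLE scaling, the cardiomyocyte covariate and voom with quality weights each left 93 called. The replicate block left 47, no filter 68, sums 2 and the random block by number 86. Only Insr and Spp1, both uncalled and near 0, changed sign. Insr ran from -0.00507 (without non-diabetic replicate 3) to 0.0903 with single libraries left out. Spp1 ran from -0.16 to 0.0819 with single libraries left out, and was 0.14 with quality weights, 0.0358 without number 65 and 0.00823 without number 69. The deep libraries still leave low genes such as Cxcl2 and Ctla4 with few counts.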
